A study of Mus musculus with 8 samples.

Results

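The genes of fatty acid oxidation and ketogenesis were examined for N6-methyladenosine (m6A) in mouse liver. The set held 40 genes, chosen by name from the enzymes and transporters of mitochondrial and peroxisomal β-oxidation, ketone body metabolism, acyl-CoA hydrolysis and the fasting response. In the whole series 11558 genes were found with a peak in control, in *Wtap*-HKO liver or in both. Of the 40 genes, 31 had a peak in control liver and 29 had a peak in *Wtap*-HKO liver.

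Long-chain fatty acids are joined to coenzyme A, pass into the mitochondria as carnitine esters, and are shortened stepwise by a dehydrogenase, a hydratase, a second dehydrogenase and a thiolase. Peroxisomes shorten very long and branched chains by a parallel set of enzymes. During fasting the liver turns the resulting acetyl-CoA into ketone bodies, which other tissues burn. m6A is a methyl mark on adenosines of RNA, placed by a methyltransferase complex in which WTAP is a regulatory subunit, and it is typically found around stop codons and in 3′ untranslated regions.

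The study compared *Wtap* flox/flox mice, the controls, with *Wtap*-HKO mice, which carry the same floxed alleles and an *Alb*-Cre transgene that acts in hepatocytes. Liver cells other than hepatocytes therefore keep *Wtap*. All mice were on a C57BL/6 background, were fed normal chow and were 8 weeks old. In m6A-RIP-seq, RNA fragments pulled down by an m6A antibody (IP) are sequenced beside the unselected fragments (input). The 8 libraries were 2 of IP and 2 of input for either genotype, each made from the pooled livers of several mice.

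The replicates of a genotype were combined before deposit, so that each peak has 1 value per genotype. That value is the fold enrichment, the linear ratio of IP over input. Consequently there is no spread between replicates, no test and no known read depth, and each difference given here compares 2 lists and not 2 sets of mice. The lists were called separately. A peak that is missing from a list was not called there, which is not a measurement of 0. A change in enrichment is also no change in the amount of the transcript.

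Over the whole series the control list held 15635 peaks and the *Wtap*-HKO list 19185. *Wtap* itself carried 3 peaks in each list, with fold enrichments of 8.06, 20.7 and 8.78 in control and 4.47, 20.5 and 20.6 in *Wtap*-HKO liver. These values cannot check the deletion, because they are ratios over input and not levels. Among the hepatocyte markers, 4 of 6 had a peak in control and 4 of 6 in *Wtap*-HKO liver, and *Cps1* had none in either. The markers of other liver cells with a peak numbered, in control and in *Wtap*-HKO, 2 and 3 of 4 for macrophages, 2 and 2 of 3 for endothelium, 1 and 2 of 3 for stellate cells, and 0 and 1 of 2 for cholangiocytes. A peak is no measure of how much of a cell type is present, and the part of other cells in the values of the oxidation genes was not tested.

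The peaks of the oxidation genes were weaker than those of other genes, and many of those in control liver had no counterpart after *Wtap* deletion. The 54 control peaks had a median fold enrichment of 2.92, from 1.42 to 23.7, and the median of all control peaks was 5.51. The 48 *Wtap*-HKO peaks had a median of 3.41, from 1.46 to 21.7, and the median of all was 5.93. The exonic length under the peaks was 17869 nucleotides in control and 12064 nucleotides in *Wtap*-HKO liver.

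A control peak with no *Wtap*-HKO peak over any of its exonic bases on the same strand is called vanished here, and a *Wtap*-HKO peak with no control peak over it is called new. Of the 54 control peaks, 22 vanished (40.7%), where 19.9% of all control peaks did. Of the 48 *Wtap*-HKO peaks, 14 were new (29.2%), where 35.3% of all were. Vanished peaks were thus a larger share in these genes than across the list. With peaks under 2-fold enrichment left out of both lists, the share of new peaks was 45%, against 37.1% of all. *Wtap*-HKO peaks over a dropped control peak then counted as new, so that share cannot be set against the 29.2%.

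Low enrichment moved with the loss. With a limit of 3-fold, set after the values were seen, 53.7% of the control peaks of the oxidation genes and 18.9% of all control peaks lay below it. Below the limit 16 of 29 peaks vanished (55.2%), and 37.5% did across the list. At or above the limit 6 of 25 vanished (24.0%), and 15.8% did across the list.

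A further 25 peaks were found 1 to 1, each overlapping a single peak of the other list. Of these, 8 were at least 1.5-fold lower in *Wtap*-HKO liver (32.0%), 9 were at least 1.5-fold higher (36.0%) and 8 were within 1.5-fold. Over the 10499 such peaks of all genes, 25.0% were lower and 27.9% higher. By ranks within each list, with a limit of 10 percentile points, 11 were lower and 9 higher, where 38.2% and 27.4% of all were. The median log2 ratio of *Wtap*-HKO over control enrichment was -0.14, beside 0.01 for all. The peaks of these genes moved in both directions, and the median near 0 was the balance of 13 peaks below and 12 above it.

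**Figure D1:**
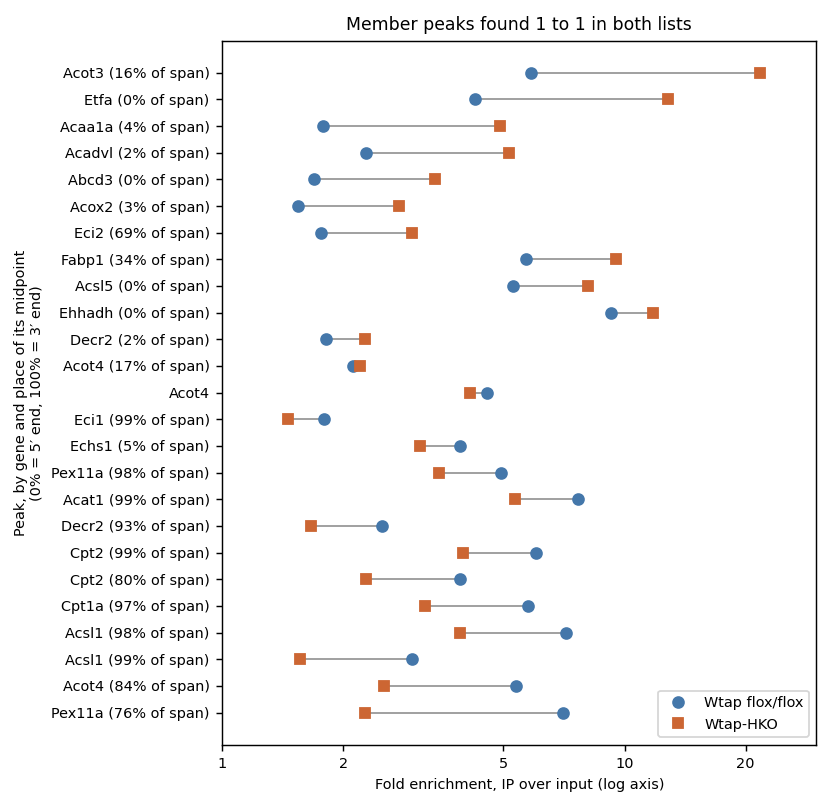
Fold enrichment of IP over input (log axis) of the 25 peaks found 1 to 1 in control (circles) and *Wtap*-HKO liver (squares), 1 value per genotype. The rows run from *Pex11a*, which went from 7.05 to 2.26, to *Acot3*, which went from 5.86 to 21.7, and 1 *Acot4* peak beyond the RefSeq gene span has no place given.

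The deposited list of differential peaks, from which only positions were taken, held 39 positions in 28 of the 40 genes. Of the control peaks of these genes, 34 overlapped such a position (63.0%), beside 22.3% of all control peaks. Of their *Wtap*-HKO peaks, 30 did (62.5%), beside 18.1% of all. Among the vanished peaks 14 of 22 lay on a listed position, and among the new peaks 7 of 14. Hence 8 vanished peaks were lost between the lists without being listed as differential. *Acad11*, an acyl-CoA dehydrogenase, had a listed position of 270 exonic nucleotides at chr9:104063497-104063931 and no peak in either genotype's list.

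By gene, 25 of the 40 had a peak in both lists. There were 6 with peaks in control only: *Acadm*, *Hadha*, *Acaa1b*, *Acot1*, *Acot2* and *Fgf21*. They were 19.4% of the members with a control peak, where 10.2% of all such genes had lost every peak. *Acaa1b*, *Acot1* and *Acot2* are near-identical to other genes of the set and their values are uncertain. The share of 19.4% rests in part on them. Another 4 had peaks in *Wtap*-HKO only: *Crot*, *Acadl*, *Etfb* and *Hsd17b4*. They were 13.8% of the members with a *Wtap*-HKO peak, where 23.9% of all such genes had no control peak. In neither list were *Hadhb*, *Hadh*, *Acaa2*, *Decr1* and *Acad11* found. The first of these encodes the partner subunit of *Hadha* in the mitochondrial trifunctional protein.

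**Figure D2:**
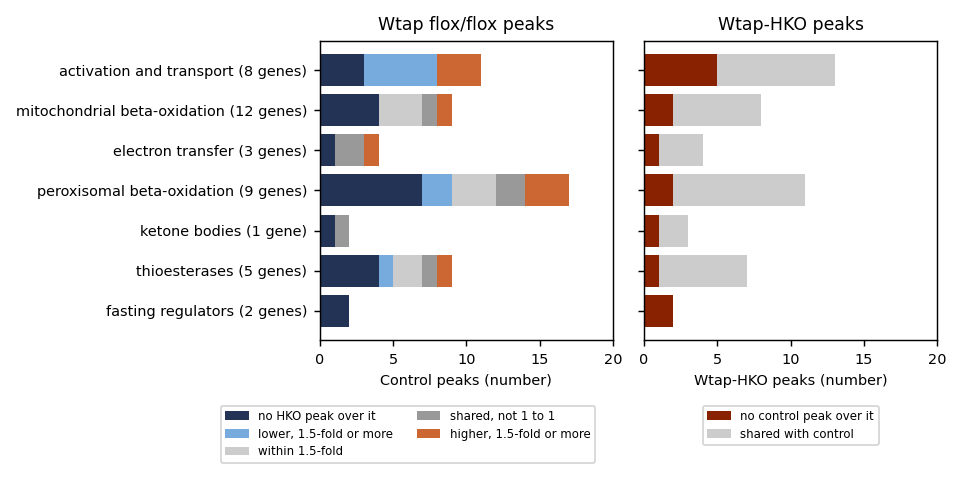
Number of peaks in control (left) and *Wtap*-HKO liver (right) by functional group, split by what was found in the other list. Activation and transport held all but 3 of the 8 lower peaks, and both control peaks of the fasting regulators had no *Wtap*-HKO peak over them.

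Activation and transport, 8 genes, held 11 control and 13 *Wtap*-HKO peaks. Of its control peaks 3 vanished, 5 were lower and 3 were higher, and 5 of its *Wtap*-HKO peaks were new. The lower peaks lay in the genes of the mitochondrial carnitine route and in *Acsl1*, and the higher ones in *Acsl5*, *Abcd3* and *Fabp1*.

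*Acsl1*, the major long-chain acyl-CoA synthetase of liver, had 3 control peaks near its 3′ end. The peak at chr8:46534344-46534943 went from 7.15 to 3.91 (log2 ratio -0.87). The peak at chr8:46535422-46535692 went from 2.96 to 1.56 (log2 ratio -0.92). Between them, a peak with an enrichment of 1.88 and a log10 false discovery rate of -275 at chr8:46535093-46535362 vanished. All 3 were thus lower or missing, and all 3 were listed as differential. *Acsl5*, another acyl-CoA synthetase, went the other way. Its peak at the gene start, at chr19:55251938-55253439, went from 5.29 to 8.13 (log2 ratio 0.62), and a new peak of 3.44 lay at chr19:55253737-55254125.

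*Cpt1a* encodes the carnitine palmitoyltransferase of the outer mitochondrial membrane, the controlled step of entry. Its only peak, at chr19:3383762-3384329, went from 5.74 to 3.19, 1.80-fold lower. *Cpt2*, the enzyme of the inner membrane that returns the chain to coenzyme A, had 3 control peaks. They had enrichments of 6.03 at chr4:107903981-107904459, 2.27 at chr4:107906995-107907145 and 3.91 at chr4:107907563-107908160. In *Wtap*-HKO liver the first was 3.96 (log2 ratio -0.61), the middle peak vanished, and the last was 2.28 (log2 ratio -0.78). No peak of either transferase was higher, and every one lay on a listed differential position.

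*Crat*, carnitine acetyltransferase, lost 1 peak and gained another. The peak of 2.95 at chr2:30401967-30402716, toward the 3′ end, vanished, and a new peak of 6.5 lay at chr2:30415454-30415544, 473 nucleotides from the gene start. *Crot*, the peroxisomal carnitine octanoyltransferase, had no control peak and a new peak of 4.31 at chr5:8996544-8996634, 512 nucleotides from its start. *Abcd3*, a peroxisomal membrane transporter of acyl-CoA, went from 1.69 to 3.37 at its start, at chr3:121814903-121815182. It also had new peaks of 1.56 at chr3:121760152-121760272 and 1.81 at chr3:121768621-121768801. *Fabp1*, the fatty acid binding protein of the liver cytosol, went from 5.69 to 9.55 (log2 ratio 0.75) over a peak of several exons at chr6:71199827-71203125.

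The 12 genes of mitochondrial β-oxidation carried few peaks, 9 in control and 8 in *Wtap*-HKO liver. Of the control peaks 4 vanished, 1 was higher, 3 were within 1.5-fold and 1 overlapped several. None of the 1-to-1 peaks was 1.5-fold lower. *Acadm*, the medium-chain acyl-CoA dehydrogenase, lost both of its peaks. That at the gene end, at chr3:153922387-153922745, had an enrichment of 2.23 and a log10 false discovery rate of -134, and that near the start, at chr3:153941908-153944483, had 2.20 and -5.48.

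The dehydrogenases for other chain lengths had higher or new peaks at their starts. *Acadvl*, for very long chains, went from 2.28 to 5.16 at chr11:70015232-70015411, 2.26-fold higher. *Acadl*, for long chains, had a new peak of 3.59 at chr1:66858286-66863277. *Acads*, for short chains, had a new start peak of 2.36 at chr5:115117641-115119316. At its other end, the control peak of 5.65 at chr5:115110299-115111132, 747 exonic nucleotides, was covered in *Wtap*-HKO liver by peaks of 3.46 and 2.48, of 180 and 329 nucleotides. *Acads* therefore had less enrichment at the 3′ end and a new peak at the 5′ end.

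*Hadha*, the other subunit of the trifunctional protein, lost its only peak, which had an enrichment of 2.26 at chr5:30119414-30119624 at the 3′ end. *Acat1*, the mitochondrial acetoacetyl-CoA thiolase, lost a peak of 3.22 at chr9:53581685-53581864. Its stronger peak at chr9:53580552-53580969 went from 7.68 to 5.35, 1.44-fold lower. *Eci1*, an enoyl-CoA isomerase, went from 1.79 to 1.46 and *Echs1*, the short-chain hydratase, from 3.89 to 3.11. The *Echs1* peak lay over a peak of *Paox* on the opposite strand, with 6.29 in control and 5.96 in *Wtap*-HKO liver. The library protocol does not state that strand was kept, so the reads of both genes cannot be told apart.

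The genes of electron transfer from these dehydrogenases to the respiratory chain had higher or new peaks at their starts. *Etfa*, the α subunit of the electron transfer flavoprotein, went from 4.26 to 12.8 at chr9:55511784-55512243 (log2 ratio 1.59). *Etfb*, the β subunit, had a new peak of 3.75 at chr7:43444083-43452398, which *Gm45233* shared on the same strand with 3.84. *Etfdh*, the oxidoreductase that accepts their electrons, had overlapping start peaks of 1.48 and 1.84 in control, and of 4.35 and 4.20 in *Wtap*-HKO liver, at chr3:79628517-79628803 in control. In *Wtap*-HKO liver all 3 genes had peaks at the gene start only. The weak 3′ peak of *Etfdh*, 1.74 at chr3:79603938-79604028, vanished.

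The 9 peroxisomal genes held 17 control and 11 *Wtap*-HKO peaks. Of the control peaks 7 vanished, 2 were lower, 3 were within 1.5-fold and 3 were higher, and 2 overlapped several. *Ehhadh*, the peroxisomal bifunctional enzyme, lost 3 of its 4 peaks. Their enrichments were 1.77 at chr16:21761496-21761735, 2.90 at chr16:21762751-21763259 and 1.42 at chr16:21766416-21770473. Its start peak, at chr16:21777831-21787844, stayed within 1.5-fold, at 9.23 and 11.8. None of the 4 was on a listed differential position, although the peak of 2.90 had a false discovery rate too small for the list to hold as a number.

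*Acox2*, the branched-chain acyl-CoA oxidase, had higher enrichment near its start. The peak at chr14:8257845-8257935 went from 1.54 to 2.75, and control peaks of 2.48 and 3.07 were covered by a single *Wtap*-HKO peak of 5.57. *Acaa1a*, a peroxisomal thiolase, went from 1.78 to 4.89 (log2 ratio 1.46) at chr9:119341346-119341435. In *Wtap*-HKO liver that peak spread over 418 exonic nucleotides and lay over a peak of 4.0 of *Myd88* on the opposite strand. Its near-identical copy *Acaa1b* lost its only peak, of 1.51 at chr9:119148053-119148231. A peak of *Dlec1* on the opposite strand, with 1.48, covered the same bases in control liver. How reads were shared between the thiolases is not given in the sources used here, so both values are uncertain.

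*Decr2*, the peroxisomal dienoyl-CoA reductase, lost a peak of 2.02 at its 3′ end, at chr17:26081270-26081597. The neighbouring peak at chr17:26081657-26082102 went from 2.49 to 1.66, at the limit of 1.5-fold, and the start peak went from 1.81 to 2.27. *Eci2*, an enoyl-CoA isomerase, lost peaks of 1.90 at chr13:34977778-34978017 and 4.79 at chr13:35007578-35027036, the latter with an edge 79 nucleotides from the gene start. Another, at chr13:34993105-34993285, went from 1.76 to 2.97 (log2 ratio 0.75). *Pex11a*, which takes part in the division of peroxisomes, had the lowest ratio of the 25 peaks found 1 to 1. At chr7:79737443-79737860 it went from 7.05 to 2.26, 3.12-fold lower, and its end peak, at chr7:79735987-79736284, went from 4.94 to 3.46, 1.43-fold lower.

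*Hsd17b4*, the peroxisomal D-bifunctional protein, had no control peak and new peaks of 2.80 near its start, at chr18:50128320-50128584, and 1.66 at chr18:50130175-50142405. Both were listed as differential.

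*Bdh1*, the dehydrogenase that turns acetoacetate into β-hydroxybutyrate, was the only gene grouped under ketone bodies here. The thiolase *Acat1* was counted under mitochondrial β-oxidation. The 3′ control peak of *Bdh1*, 3.56 at chr16:31456717-31457405, covered 689 nucleotides. In *Wtap*-HKO liver it was replaced by peaks of 1.78 and 1.49, of 150 and 120 nucleotides. A second 3′ peak, 1.72 at chr16:31458363-31458662, vanished. At the gene start, where control liver had no peak, the highest of the 14 new peaks, 7.47, lay at chr16:31422280-31428814. All of these lay on listed positions.

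The acyl-CoA thioesterases, which split acyl-CoA into the free acid and coenzyme A, held 9 control and 7 *Wtap*-HKO peaks, and 4 control peaks vanished. *Acot1* lost a peak of 2.04 at its start, at chr12:84009520-84009669, and a peak of 4.11 at chr12:84016816-84017534, the latter of 719 nucleotides. *Acot2* lost its peak of 8.34 at chr12:83992568-83992716. These genes are near-identical neighbours, and their values are uncertain for that reason, as are those of *Acot3* and *Acot4* in the same cluster.

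*Acot3* had the highest ratio of the 25 peaks found 1 to 1. The peak at chr12:84053347-84053526 went from 5.86 to 21.7, 3.70-fold higher. Its long 3′ peak of 12.2, at chr12:84058489-84059924, of 1436 nucleotides, was covered in *Wtap*-HKO liver by peaks of 2.90 and 8.92, of 449 and 688 nucleotides. The former also overlapped a control peak of 2.86 of *AC133183.1*, so the match is uncertain. *Acot4* had 3 peaks found 1 to 1. That at chr12:84043304-84043813 went from 5.38 to 2.53 (log2 ratio -1.09), and the others went from 2.11 to 2.20 and from 4.54 to 4.13. The lower *Acot4* peak and the higher *Acot3* peak both lay over a control peak of 5.45 of *ENSMUSG00000097762* on the opposite strand. Over the *Acot4* peak that gene had 2.51 in *Wtap*-HKO liver, so the lower *Acot4* value cannot be told apart from that of its partner. *Acot12*, a cytosolic acetyl-CoA hydrolase, lost a 3′ peak of 2.35 at chr13:91784831-91785071. It had a new start peak of 4.44 at chr13:91741512-91750219, over a peak of 4.04 of the opposite-strand gene *ENSMUSG00000074782*.

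Both regulators of the fasting state lost their control peak. *Fgf21*, a hormone of the fasted liver, had the highest enrichment of the set in control, 23.7 at its start, at chr7:45615342-45615490, and no *Wtap*-HKO peak. Its log10 false discovery rate of -6.93 was among the weakest of the set, and it was not listed as differential. *Pdk4*, the kinase that shuts off pyruvate dehydrogenase, lost a peak of 7.18 at chr6:5485165-5485493. It had new peaks of 2.31 nearer its 3′ end, at chr6:5483886-5483976, and of 3.05 at its start, at chr6:5496190-5496309.

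The place of a peak along the gene went with its change. The gene span of RefSeq was divided by the midpoint of each peak's exonic bases. In the final 10% of the span lay 23 control peaks of the oxidation genes, and 13 of them vanished (56.5%), where 22.1% of all control peaks there did. The 8 found 1 to 1 there were all below 0 on the log2 scale, with 5 lower and 0 higher and a median of -0.60. Of all such peaks 60.2% were below 0, and their median was -0.20.

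Weak peaks were again the ones lost. In the final 10%, 11 of the 14 control peaks under 3-fold enrichment vanished (78.6%), beside 54.0% of all such peaks. Of the 9 at 3-fold or more, 2 vanished (22.2%), beside 14.8% of all.

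In the first 10% of the span the peaks found 1 to 1 went the opposite way. Of 15 control peaks there 3 vanished (20%), beside 10.4% of all, which is too few to read as a greater loss. The 3 were start peaks of *Acadm*, *Acot1* and *Fgf21*. Those of *Acadm* and *Fgf21* had weak log10 false discovery rates, -5.48 and -6.93, and the values of *Acot1* are uncertain. The vanished *Eci2* peak of 4.79 had an edge 79 nucleotides from the start, but its midpoint lay at 39.1% of the span. Of 22 *Wtap*-HKO peaks 10 were new (45.5%), beside 55.0% of all. The 9 found 1 to 1 had a median of 0.84, close to the 0.78 of all such peaks, with 8 above 0 and 6 higher, 66.7% beside 62.5% of all. The share of higher peaks at gene starts was therefore about that of the whole list. Between these parts, 6 of 14 control peaks vanished (42.9%), beside 18.7% of all. Of 7 peaks found 1 to 1 there, 3 were lower and 3 higher (42.9% each), beside 27.5% and 22.1% of all.

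**Figure D3:**
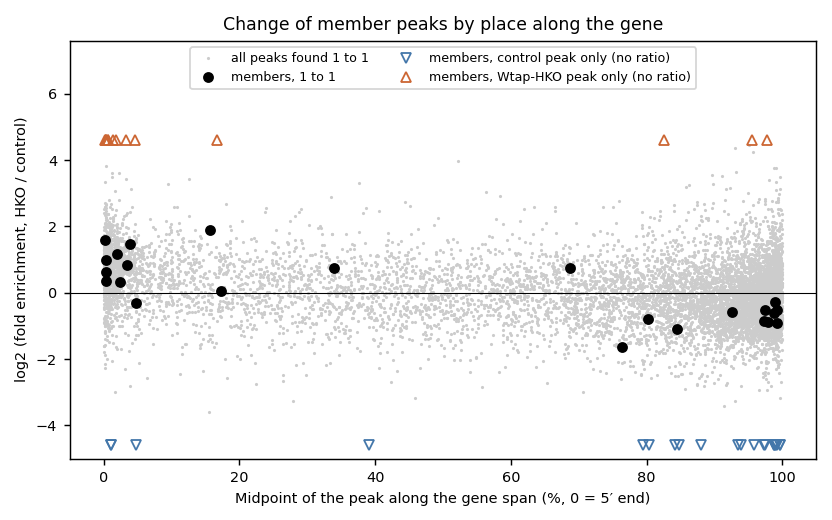
log2 ratio of fold enrichment (*Wtap*-HKO over control) by place of the peak along the gene span (0% is the 5′ end). Black points are the oxidation gene peaks found 1 to 1, grey points those of all genes, and open triangles are peaks of only 1 list, set at fixed heights because they have no ratio. The 8 black points in the final 10% lie below 0, and 8 of the 9 in the first 10% lie above it.

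Peaks with an edge within 200 nucleotides of the gene start were common in this set in both genotypes. In control liver they were 14 of 52 peaks that could be placed (26.9%), in 13 genes, beside 10.7% of all. In *Wtap*-HKO liver they were 16 of 47 (34.0%), in 15 genes, beside 18.2% of all.

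Several genes combined a lost or lower peak at one end with a new or higher peak at the other. How many of all genes did so was not counted. Over all genes, the 1-to-1 peaks had a median log2 ratio of 0.78 in the first 10% and -0.20 in the final 10%. *Bdh1*, *Acads*, *Crat* and *Acot12* each lost or lowered a peak in the 3′ part and had a new peak at or near the start. *Pdk4* lost a peak at 84.7% of the span and had new peaks at both ends, at the start and at 95.5%. *Etfdh* lost its 3′ peak while its start peaks were higher, and *Ehhadh* kept the start peak alone, within 1.5-fold. In contrast, *Acadm*, *Acot1* and *Fgf21* each lost a peak at the start. *Eci2* lost a peak with an edge near the RefSeq start but with its midpoint at 39.1% of the span. *Cpt1a*, *Cpt2* and *Acsl1* had no start peak in either list.

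**Figure D4:**
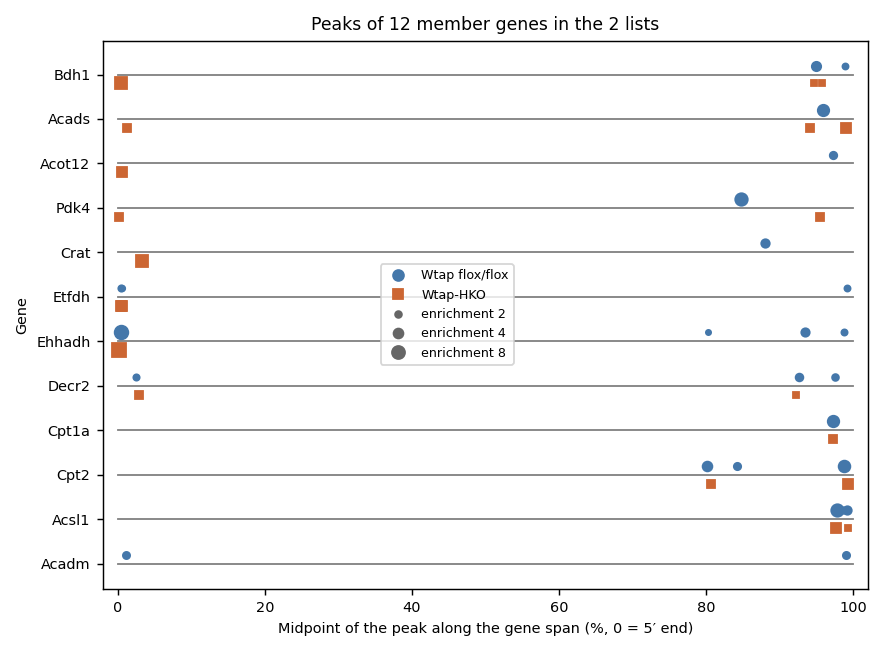
Midpoints of the peaks of 12 oxidation genes along the gene span (%, 0 is the 5′ end) in control (circles) and *Wtap*-HKO liver (squares), with marker size growing with the log of fold enrichment. *Bdh1*, *Acads*, *Acot12*, *Pdk4* and *Crat* had a *Wtap*-HKO peak at the left end where control liver had none. *Acadm* had a control peak there and no *Wtap*-HKO peak.

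The start sites that lay inside a *Wtap*-HKO peak are shown because that is where new and higher peaks gathered. There were 7, among the 28 members whose RefSeq promoter entry (GRCm38.p6) begins at the gene start. Each line gives 30 bases of the gene's strand, 5′ to 3′, with the first transcribed base in capitals.
Acox2 (chr14:8259000-8259029, minus strand): gagtcatgccAgagttgcctggcacctgat
Bdh1 (chr16:31422287-31422316, plus strand): atactgtaccTtatcattaggtggcttttc
Ehhadh (chr16:21787815-21787844, minus strand): gggcggcccaGaaaaggagccccgggctgc
Etfa (chr9:55512224-55512253, minus strand): caatgggctcCcgggaagcgcgagcccccg
Etfdh (chr3:79628748-79628777, minus strand): actggccttcGtgtcctctgtggcgccggc
Fabp1 (chr6:71199869-71199898, plus strand): gtgacctggcAggcagagctgttgtggtca
Pdk4 (chr6:5496259-5496288, minus strand): acccaggctcGagcacccgggaccctggga
The annotated first base was A in 2 of the 7 (28.6%), where it was A in 34.4% of 32851 promoter entries. The sets are unlike, because the 7 begin at the gene start and the larger set also holds other starts. Such other entries of *Abcd3*, *Acaa1a*, *Acot12*, *Acox2*, *Acsl5* and *Bdh1* also lay in a *Wtap*-HKO peak and were left out. A first transcribed A next to the cap can carry a related methyl mark that m6A antibodies also bind, and its part in these peaks was not tested. The motif GGAC, a common setting of m6A, was in the first 50 transcribed bases of 2 of the 7 (28.6%), *Etfa* and *Pdk4*, and in 18.9% of all entries. Its reverse complement GTCC, the motif on the other strand, was there in 2 of the 7, and in 17.4% of all. *Bdh1*, with the highest new peak, had neither motif in that window, and *Etfa* had both.

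Mitochondrial and peroxisomal genes were then set side by side, with the genes sorted by organelle and no longer by role. *Crot*, *Abcd3*, *Acot3* and *Acot4* joined the peroxisomal genes, and *Cpt1a*, *Cpt2*, *Acot2* and the electron transfer genes the mitochondrial ones. *Crat*, *Eci2*, *Acad11*, *Acsl1* and *Acsl5*, with more than 1 site or an unsure one, stood apart, and 4 of their 8 control peaks vanished. *Fabp1*, *Bdh1*, *Acot1*, *Acot12*, *Pdk4* and *Fgf21* were in neither set, although *Bdh1* and *Pdk4* encode mitochondrial enzymes, and 6 of their 8 control peaks vanished. The 18 mitochondrial genes held 18 control peaks in 12 genes, and 7 vanished (38.9%), with 3 lower, 2 higher and 3 within 1.5-fold. Their median log2 ratio was -0.42. The 11 peroxisomal genes held 20 control peaks in 9 genes, and 5 vanished (25.0%), with 3 lower, 4 higher and 5 within. Their median was 0.19. Of the *Wtap*-HKO peaks, 3 of 15 were new in the mitochondrial genes (20%) and 5 of 20 in the peroxisomal genes (25.0%). Over all genes 19.9% of control peaks vanished and 35.3% of *Wtap*-HKO peaks were new.

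The places of the peaks were also counted by compartment. Of all 15635 control peaks, 5955 were in the final 10% of the span. In the mitochondrial genes 9 of 18 control peaks were in the final 10% of the span, of which 4 vanished. In the peroxisomal genes 6 of 20 were there, of which 4 vanished as well, and 2 of the 20 could not be placed. In the first 10%, 1 of 6 mitochondrial and 0 of 6 peroxisomal control peaks vanished. Of all control peaks 22.1% vanished in the final 10% and 10.4% in the first 10%. The share of vanished peaks depended on the sorting. By role, 44.4% vanished in mitochondrial and 41.2% in peroxisomal β-oxidation. Without the near-identical thiolase and thioesterase genes, left out after the values were seen, 6 of 17 mitochondrial (35.3%) and 4 of 13 peroxisomal control peaks (30.8%) vanished. The difference between the compartments was not tested.

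Among 60 other genes of fatty acid oxidation, ketogenesis and peroxisome formation, 40 had a control peak and 36 a *Wtap*-HKO peak. Of their 71 control peaks 25 vanished (35.2%), beside 19.9% of all. Of their 59 *Wtap*-HKO peaks 13 were new (22.0%), beside 35.3% of all. The 40 found 1 to 1 had a median log2 ratio of -0.05. They split into 13 lower (32.5%) and 15 higher (37.5%), beside 25.0% and 27.9% of all. The wider pathway thus shared with the 40 genes a share of vanished peaks above that of all control peaks. The near balance of lower and higher peaks was also that of the whole list.

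The genes in which every control peak vanished and no *Wtap*-HKO peak was called included, with their control enrichment, *Acsm1* (2.51), *Acad8* (3.23), *Amacr* (2.25), *Phyh* (1.43), *Pex6* (1.68), *Pex26* (5.03) and *Crls1* (3.25). In *Cat* and *Aldh3a2* the only control peak, of 1.89 and 2.51, vanished and a new peak, of 2.14 and 2.06, lay elsewhere. Among these genes, *Phyh* and *Amacr* prepare branched chains for oxidation.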

How the data were processed

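Liver RNA of both genotypes was measured by m6A-RIP-seq. The authors cleaned reads with fastp 0.19.11, aligned them with BWA 0.7.12 to GRCm38 and called peaks with exomePeak. HOMER 4.9.1 is also named in the submitters' processing notes. The deposited lists give, for each peak, a fold enrichment (a linear ratio of IP over input) and a score, the log10 of its false discovery rate, both made by the authors from combined replicates. How libraries were scaled or replicates combined is not given in the sources used here. The differential list also holds the authors' own fold changes and p-values between genotypes, which were not used.

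Peaks were matched by gene name, and between lists by at least 1 shared exonic base on the same strand (Python 3.11.15, pandas 2.3.3). Peaks overlapping exactly 1 peak in both directions were compared at a limit of 1.5-fold. No test was run. The matching was tested on simulated peaks. Gene spans and start sites came from RefSeq (GRCm38.p6). Named in full were genes with peaks in 1 list only, with a peak past 1.5-fold, or with a vanished and a new peak, and, of the other pathway genes, those whose control peaks all vanished. Some other pathway genes are not reported here. The members, lists and parts of the gene span were chosen with earlier results of these data known.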

Additional observations from a re-analysis of the deposited data

How the results depend on the processing

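Peaks were recounted with a minimum enrichment or false discovery rate, other overlap rules, merged peaks, other fold limits, centring, ranks and other edge distances. Of 46 alternative values, 41 stayed within 1.5 times the count or near the value given and 5 moved. With only peaks of at least 2-fold enrichment, 17 were found 1 to 1. Of these, 5 were higher, not 9 (29.4%, beside 27.9% of all), and 6 were lower (35.3%, beside 24.6% of all). Higher peaks that began below 2-fold in control were dropped by that rule. By ranks 11 were lower and 9 higher (44.0% and 36.0%). Over all peaks 38.2% and 27.4% were, so lower ranks also led across the list. With the 2-fold minimum the median log2 ratio was -0.32, and the share of new peaks was 45%, beside 37.1% over the whole list. That minimum was applied to both lists, so peaks whose counterpart was dropped then counted as new or vanished. With a log10 false discovery rate at or below -5 the median was -0.04. With a limit of 2-fold, 2 peaks were lower and 4 higher, where 12.4% and 14.9% of all were. The share of vanished peaks lay between 40.7% and 46.3% under these settings, and between 18.6% and 25.6% over all control peaks. No paired analysis was possible because the replicates of each genotype were combined before deposit, for which reason no replicate could be left out either. Depth is unknown, so a peak lost between lists cannot be told apart from one that passed the caller in one list only.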
